A study of Mus musculus with 2 samples.

Results

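The 82 genes described here are the cytosolic ribosomal protein genes of the mouse as their symbols give them: every symbol of the gene table that starts with Rpl or Rps followed by a digit, without a hyphen and without the Rps6k kinases. Of 97 symbols with that start, 5 held a hyphen and 10 were Rps6k kinases, which left 49 Rpl genes (large subunit) and 33 Rps genes (small subunit) among 32285 genes. The symbol rule is not a list of subunits. Rps19bp1, which encodes a protein that binds Rps19 and is no ribosomal protein, is inside it, while genes such as Rplp0, Rplp1, Rplp2, Rpsa, Fau and Rack1, whose products sit on the ribosome, are outside it. Both sets are kept apart below.

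The study marks nuclei in a frozen tissue section with spatial DNA barcodes and then sequences the RNA of single nuclei by droplet capture (Slide-tags). The libraries used here are 1 of adult hippocampus, from a 20 µm coronal section of the brain of a male C57BL/6J mouse at 56 days, and 1 of embryonic brain, from a sagittal section of a purchased C57BL/6J embryo at embryonic day 14 (E14). Neither animal carried a labelled mutation or treatment. With 1 library per tissue there is no replicate, so no test was made. Every interval below is an exact 95% interval for counting error alone, and nuclei are not replicates of a tissue. Age, region, section, library and software version differ together between the libraries and cannot be told apart.

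Each ribosome holds 1 copy of nearly every ribosomal protein, and a cell makes these proteins in step with ribosomal RNA. Their mRNAs are short and abundant, are translated in the cytoplasm, and in many cases begin with a C followed by pyrimidines, the 5′ terminal oligopyrimidine (TOP) tract through which the mTOR kinase pathway sets their translation. Several of their introns carry small nucleolar RNAs (snoRNAs), which guide the modification of ribosomal RNA. Single-nucleus libraries hold nuclear transcripts and cytoplasmic RNA that stays attached to nuclei or floats free, so the mRNA of these genes reaches such libraries by both routes.

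After removal of nuclei with over 5% mitochondrial UMIs (UMI, a unique molecular identifier, counts 1 captured RNA molecule), the adult library held 1609 nuclei with a median of 6607 UMIs and 15346746 UMIs in all. The E14 library held 9036 nuclei with a median of 4204 UMIs and 58923882 in all. Only 1 barcode sequence was shared between them. Nuclei were put in classes by the UMIs of up to 8 marker genes per class, none of which is a ribosomal protein gene, and 75.7% of adult and 43.6% of E14 nuclei received a class. A class is written "X-like", since its name rests on these markers alone. Its own markers, summed, were 6.07- to 228-fold higher than in the other adult classes and 5.11- to 64.9-fold higher than in the other E14 classes. The same markers had assigned the nuclei, so these folds do not test the class names. Of 8 markers, only 7 were higher in adult microglia or macrophage-like, E14 choroid plexus-like and E14 thalamic or other glutamatergic-like nuclei. The adult endothelial-like nuclei also held mural markers at 2268 counts per 1000000 UMIs (CPM), as no separate adult mural class was formed.

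All 82 members are annotated as protein-coding in GENCODE vM21 (GRCm38), on 19 chromosomes, with gene spans of 374 to 31449 bases and a median of 3266. Introns of 28 members contain 54 snoRNA genes in all. For 57 members the annotation names at least 1 pseudogene, and Rps2 has 11 and Rpl21 has 15, so reads from near-identical copies may be lost or exchanged and the counts of single members are uncertain to that extent. Rpl19 is the 1 member that overlaps another gene on its own strand.

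The TOP tract is a feature of the first transcribed bases, and RefSeq windows around the gene start (GRCm38.p6) were available for 63 of the 82 members. In 13 of these 63 (20.6%) the first base was a C followed by at least 4 further C or T, against 454 of 17429 other protein-coding genes (2.60%) and 810 of all 32776 other promoters (2.47%). The tracts ran for 5 to 13 bases, with a median of 8. Of the ribosomal protein genes outside the symbol rule, 3 of 5 had such a start, and of the translation factors and other genes known for TOP mRNAs 5 of 14 (35.7%). None of 69 mitochondrial ribosomal protein genes, 0 of 22 ribosome biogenesis genes and 1 of 12 other short abundant mRNAs had it. A run of 8 or more C or T anywhere in the 30 bases was found in 23 of the 63 members (36.5%) and in 2263 of the 17429 other genes (13.0%). The search was made on the gene's own strand, and a match is a description of the letters, since annotated starts can lie some bases from the true one. Windows of 10 bases before and 20 bases from the annotated first base are shown for 8 members named in the comparisons below. The first 5 carry the tract, in capitals, and the last 3 do not.

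Rpl38 (chr11:114668570-114668599, plus strand): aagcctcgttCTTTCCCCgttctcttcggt
Rps18 (chr17:33955646-33955675, minus strand): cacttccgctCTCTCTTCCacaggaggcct
Rpl35 (chr2:39005112-39005141, minus strand): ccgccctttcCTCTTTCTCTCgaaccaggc
Rps27 (chr3:90213629-90213658, minus strand): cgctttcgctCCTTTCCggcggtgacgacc
Rps15a (chr7:118116128-118116157, minus strand): tttctgccatCTTCCCTCgccggtgagtga
Rpl12 (chr2:32961702-32961731, plus strand): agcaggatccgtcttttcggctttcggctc
Rps2 (chr17:24720053-24720082, plus strand): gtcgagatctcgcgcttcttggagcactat
Rps28 (chr17:33824543-33824572, minus strand): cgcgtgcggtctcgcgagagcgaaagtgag

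Summed over all nuclei, the members took 151679 UMIs in the adult library, which is 0.988% of its UMIs (0.983 to 0.993), and 723606 in the E14 library, which is 1.23%. Every nucleus kept in either library held at least 1 member UMI. In the adult library 69 members had at least 1000 UMIs and in the E14 library 77 did. The sum was spread over many genes, as the 5 members with most UMIs made up 12.8% of it in the adult and 13.8% at E14. In the adult library they included Rpl13 (4350 UMIs), Rpl3 (3571), Rpl9 (3315) and Rpl27a (3190). At E14 they included Rps29 (23003 UMIs), Rpl41 (17864), Rps28 (17795) and Rpl37a (17606). These are UMI counts and give no order of level per transcript length.

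A few paralogues with restricted use elsewhere in the body lay at the bottom. Rpl10l, a retrogene copy of Rpl10 known from the testis, had 0 UMIs in both libraries, where 3 counts, the limit that a count of 0 allows, correspond to 0.195 CPM in the adult and 0.0509 CPM at E14. Rpl39l, also known from the testis, had 0 UMIs in the adult library and 1 at E14. Rpl3l, the striated muscle counterpart of Rpl3, had 10 and 12 UMIs. Rps27rt, an Rps27 retrogene, had 27 and 142. Rps19bp1, a member that is no ribosomal protein, had 154 and 546.

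The share moved with depth, being highest in the shallowest nuclei, so classes were compared within one depth range. In adult nuclei of 500 to 1000 UMIs the members made up 5.86% of UMIs, and in those of 16000 UMIs or more 0.740%. The number of member UMIs per nucleus rose over the same range from 40.8 to 182, a smaller rise than that of total depth. At E14 the share went from 4.67% to 1.03% at 4000 to 8000 UMIs and stood at 1.25% in the deepest nuclei. Malat1, a long RNA retained in the nucleus, moved the other way, from 0.723% to 5.77% in the adult and from 1.73% to 3.94% at E14, while mitochondrial UMIs fell from 1.94% to 0.117% and from 0.557% to 0.126%. These quantities moved with depth together, and their part in the ribosomal share was not tested.

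**Figure D1:**
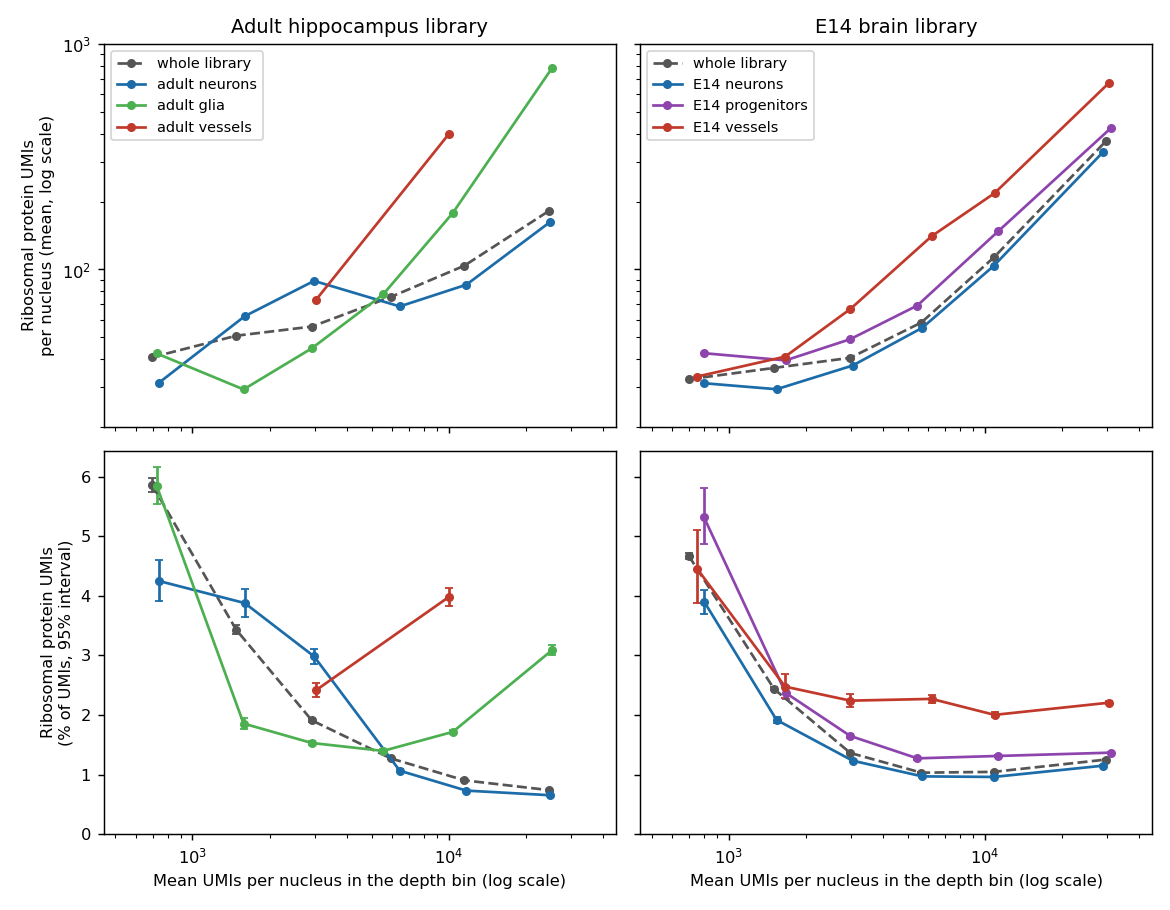
Ribosomal protein UMIs per nucleus (top, mean, log scale) and their share of all UMIs (bottom, %, with exact 95% intervals) against mean UMIs per nucleus in 6 depth bins (log scale), for the whole library (dashed) and grouped classes (coloured), adult left and E14 right. The share fell from 5.86% to 0.740% in the adult library, and E14 vessel-like nuclei stayed above E14 neuron-like nuclei in every bin.

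The shape of this fall differed by class in the adult library. Adult neuron-like nuclei (dentate granule-, CA pyramidal or cortical excitatory-, thalamic- and inhibitory-like) went from 4.25% at 500 to 1000 UMIs through 2.98% at 2000 to 4000 to 0.653% in the 298 deepest nuclei. Adult glia-like nuclei (oligodendrocyte-, oligodendrocyte precursor-, astrocyte- and microglia or macrophage-like) went from 5.84% to 1.40% at 4000 to 8000 UMIs and then up to 3.09%, the last from 7 nuclei. Neurons stood above glia in the bins from 1000 to 4000 UMIs, and glia above neurons in the shallowest bin and in every bin from 4000 UMIs upward. Most adult neuron-like nuclei were deep, and shallow ones had little Malat1, at 0.675% of UMIs in the shallowest bin against 5.75% in the deepest. At E14 the curves kept their order from 2000 UMIs upward. E14 progenitor-like nuclei settled between 1.27% and 1.37% from 4000 UMIs, E14 neuron-like nuclei between 0.960% and 1.15%, and E14 vessel-like nuclei between 2.00% and 2.27%.

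The window of 3000 to 6000 UMIs per nucleus holds nuclei of all classes and is the basis of the class values that follow. Among E14 classes the summed share was highest in endothelial-like nuclei, at 2.38% (2.29 to 2.48, 21 nuclei), and in fibroblast or mesenchyme-like nuclei, at 2.15% (2.09 to 2.21, 49 nuclei). Next came intermediate progenitor-like nuclei at 1.58% (1.51 to 1.65, 26 nuclei), cortical excitatory-like nuclei at 1.47% (1.43 to 1.505, 105 nuclei) and radial glia-like nuclei at 1.41% (1.39 to 1.44, 203 nuclei). The intervals of the last pair overlapped. Microglia or macrophage-like nuclei stood at 1.35% (23 nuclei).

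The lower part of the E14 order was made of postmitotic neuron classes and of 2 other classes. Hypothalamic-like nuclei stood at 1.20% (104 nuclei), mural-like nuclei at 1.17% (1.06 to 1.28, 9 nuclei) and Cajal-Retzius-like nuclei at 1.11% (48 nuclei), with overlapping intervals between neighbours. Choroid plexus-like nuclei were at 1.04% (0.949 to 1.15, 10 nuclei) and forebrain GABAergic-like nuclei at 1.02% (1.01 to 1.03, 445 nuclei). Thalamic or other glutamatergic-like nuclei were lowest, at 0.903% (0.888 to 0.919, 322 nuclei). In choroid plexus-like nuclei, Ttr, the transthyretin gene that this epithelium transcribes at very high level, alone took 3.71% of UMIs, which lowers every other share in that class.

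Neuron classes of the E14 brain therefore differed among themselves by more than counting error, from 0.903% to 1.47%. The share in the median nucleus gave the same ends of the order, at 0.846% in thalamic or other glutamatergic-like and 1.32% in cortical excitatory-like nuclei. For endothelial-like nuclei the median was 1.87%, below their summed share, as single nuclei ranged from 0.764% to 6.98%. Without a depth window the fibroblast or mesenchyme-like class reached 3.14%, the mural-like class 1.87% and the intermediate progenitor-like class 1.11%, so the places of these 3 classes depend on depth.

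In the adult window the endothelial-like class was again highest, at 2.82% (2.69 to 2.96, 16 nuclei), with a median nucleus at 2.71%. Thalamic-like nuclei followed at 2.53% (2.32 to 2.75), from 5 nuclei with Malat1 at only 1.28% and mitochondrial UMIs at 1.21%. Astrocyte-like nuclei stood at 2.37% (2.30 to 2.44, 43 nuclei), but their median nucleus held 0.906% and single nuclei ran up to 12.6%. Microglia or macrophage-like nuclei behaved alike, with a summed share of 2.13% and a median of 0.645% over 11 nuclei. In both classes a minority of nuclei rich in ribosomal protein UMIs carried the sum.

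The other adult classes were lower and more even. CA pyramidal or cortical excitatory-like nuclei held 1.73% (9 nuclei), dentate granule-like nuclei 1.20% (1.14 to 1.26, 26 nuclei) and inhibitory-like nuclei 1.13% (1.00 to 1.27, 5 nuclei). Oligodendrocyte-like nuclei held 0.962% (0.929 to 0.996, 82 nuclei) and oligodendrocyte precursor-like nuclei 0.832% (0.761 to 0.908, 14 nuclei). Over all depths, where most adult neuron-like nuclei lie above the window, the neuron classes were the lowest: 0.556% in CA pyramidal or cortical excitatory-like, 0.561% in inhibitory-like, 0.631% in thalamic-like and 0.888% in dentate granule-like nuclei. The endothelial-like class stayed highest at 2.91% and the astrocyte-like class second at 2.43%.

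**Figure D2:**
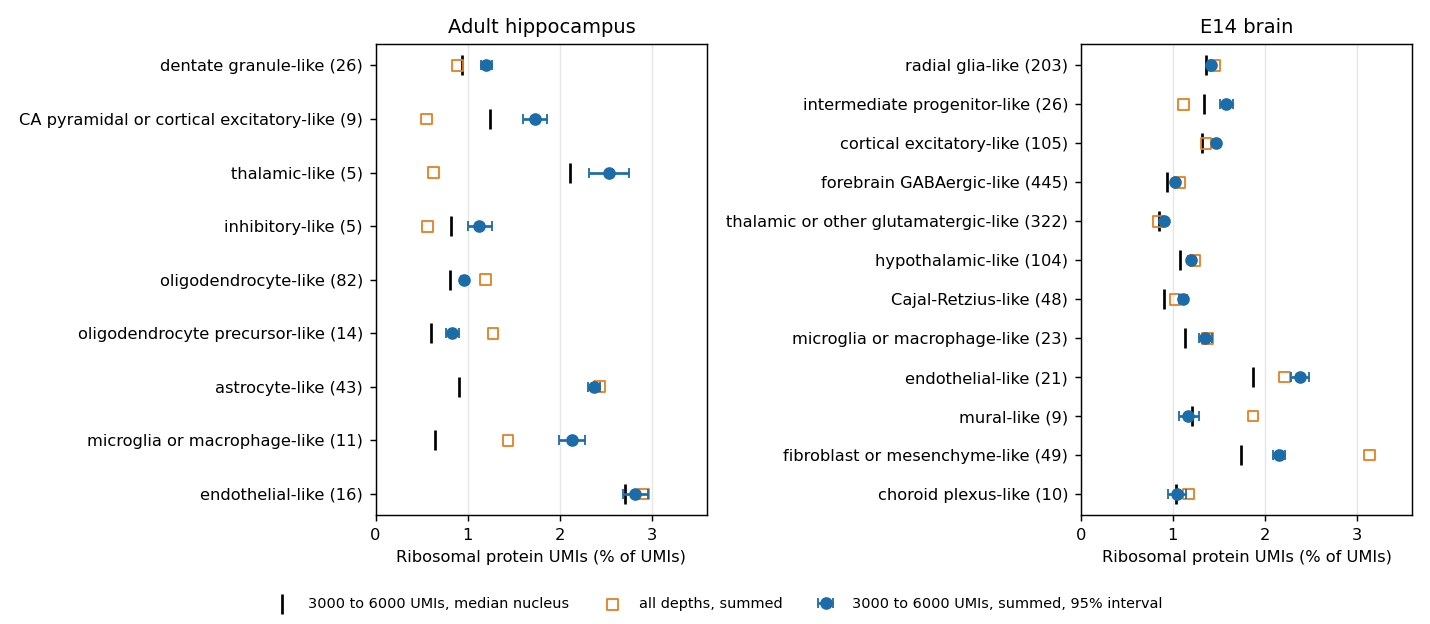
Share of UMIs from the 82 ribosomal protein genes (%) in each marker class, adult left and E14 right, with the number of nuclei in the 3000 to 6000 UMI window in brackets; filled circles are the summed share in the window with its exact 95% interval, bars the median nucleus of the window, and open squares the summed share over all depths. Endothelial-like nuclei stood at 2.82% in the adult and 2.38% at E14, and CA pyramidal or cortical excitatory-like nuclei went from 1.73% in the window to 0.556% over all depths.

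Single members followed the sum in nuclei of all depths, on which the values of this paragraph rest. Over the 12 E14 classes, the CPM of each of 74 members with at least 1000 UMIs in nuclei that received a class correlated with the sum of the other members with a median Pearson r of 0.976, and 72 were above 0.9. The lowest was Rpl22l1 at 0.834. Over the 9 adult classes the median was 0.971 for 65 members, with 61 above 0.9 and Rpl7 lowest at 0.861. These correlations describe class means that share a library and differ in depth. Of the 74 members at E14, 72 were highest in fibroblast or mesenchyme-like nuclei and 69 were lowest in thalamic or other glutamatergic-like nuclei. In the window the summed share was instead highest in endothelial-like nuclei, so the upper place depends on depth. No matching count over all genes was made. In the adult, 55 of 65 were highest in endothelial-like nuclei. The fold between a member's highest and lowest class had a median of 3.62 at E14 (2.59 to 5.79) and 5.97 in the adult (3.59 to 9.69). Rpl3 shows the usual pattern over all depths, from 76.8 CPM in thalamic or other glutamatergic-like nuclei through 147 in radial glia-like and 255 in endothelial-like to 296 in fibroblast or mesenchyme-like nuclei at E14. In the adult, Rpl3 stood at 128 CPM in thalamic-like, 256 in dentate granule-like and 464 in endothelial-like nuclei.

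E14 progenitor-like nuclei (radial glia- and intermediate progenitor-like) held a larger ribosomal share than E14 neuron-like nuclei in the window, and nearly all members took part by a modest amount. The share was 1.43% in 229 progenitor-like and 1.05% in 1024 neuron-like nuclei, a ratio of 1.36 (1.34 to 1.39). Neuron classes were not alike in this, as cortical excitatory-like nuclei, at 1.47%, stood above the progenitor-like value and the other 4 neuron classes, from 0.903% to 1.20%, below it. Of 77 members with at least 50 UMIs in both groups together, 76 had a ratio over 1, and for 65 the interval lay above 1. No matching counts over all genes were made for these, so they do not set the members apart from other genes. A ratio of at least 1.5 was reached by 25 members (32.5%), against 29% of all 10748 genes counted, so the share past that size was near the background. None of the 77 was lower by that factor, against 21.6% of all genes. The median log2 ratio was 0.43 over members and 0.20 over all genes. Malat1 was at 2.31% of UMIs in progenitor-like and 3.51% in neuron-like nuclei, and 68 of the 229 progenitor-like nuclei had Malat1 under 1.5% against 18 of the 1024 neuron-like ones. Their part in the difference was not tested. Limiting both groups to nuclei with more Malat1 left a log2 ratio of 0.38, beside 0.45 in the window.

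The members did not all move by the same factor. Rpl12, a protein of the stalk base of the large subunit, had the highest ratio, at 128 CPM in progenitor-like and 57.5 in neuron-like nuclei (ratio 2.22, 1.78 to 2.76). Rps2, at the mRNA entry of the small subunit, stood at 133 against 66.9 CPM (1.99, 1.60 to 2.45), and Rps18, a protein of the small subunit head, at 123 against 63.1 (1.94, 1.56 to 2.42). These 3 members were near or above 2-fold, with intervals above that of the summed share.

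At the other end were Rpl35, with 75.7 against 82.1 CPM (0.922, 0.708 to 1.19), Rps27 (1.06, 0.909 to 1.23) and Rpl37 (1.06, 0.913 to 1.24). All of these intervals include 1. Of the windows shown above, those of Rps18, Rpl35 and Rps27 have the pyrimidine tract at the annotated start and those of Rpl12 and Rps2 do not. Rpl37, whose window is not shown, has none at its annotated start. Both ends thus held members with and without it, as far as annotated starts tell. The median log2 ratio was 0.40 over the 12 counted members with the tract and 0.43 over the 46 without. It was 0.45 for Rpl and 0.41 for Rps genes, and 0.47 for members with a snoRNA inside and 0.42 for the others.

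Genes that work with the ribosome stood beside the members as follows. Of 21 ribosome biogenesis genes, 14 (66.7%, beside 29% of all genes) were higher in progenitor-like nuclei by at least 1.5-fold and none lower, with a median log2 ratio of 0.78. Among them were Utp20, a small subunit processome protein (4.64, 3.39 to 6.35), Gnl3, nucleostemin (3.11, 2.48 to 3.88), and Ncl, nucleolin (1.72, 1.46 to 2.02), while Fbl, the fibrillarin methyltransferase, was at 0.887 (0.691 to 1.13). Translation factors and other TOP mRNAs were higher in 9 of 20 (45%, median 0.50) and ribosomal proteins outside the rule in 3 of 7 (median 0.43). Mitochondrial ribosomal proteins were higher in 16 of 62 (25.8%), below the share over all genes, with 1 lower and a median of 0.24. Other short abundant mRNAs, such as actins and tubulins, went the other way, with 0 of 16 higher, 5 lower and a median of -0.28. The 12 cell cycle genes were all higher, with a median of 3.47.

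Within radial glia-like nuclei the ribosomal share also differed with cell cycle genes, 12 genes that took no part in the class rule. In the window, 154 nuclei with at least 2 cell cycle UMIs held 1.46% (1.43 to 1.49), 23 nuclei with 1 such UMI 1.28% (1.21 to 1.36) and 26 nuclei with none 1.22% (1.16 to 1.29). At 1500 to 3000 UMIs the values were 1.99% with at least 2 such UMIs, 1.45% with 1 and 1.52% with none. At 6000 to 12000 UMIs they were 1.26% over 97 nuclei, 0.853% over 5 and 0.8001% over 9. The 3 depth ranges thus gave the same order between nuclei with at least 2 and with no cell cycle UMIs. Nuclei with 1 such UMI did not stand between them at 1500 to 3000 UMIs, so no graded relation was seen at every depth. Malat1 was at 2.21% of UMIs with at least 2 such UMIs and 2.28% with none in the window, at 1.80% and 2.23% from 1500 to 3000 UMIs, and at 2.65% and 3.70% from 6000 to 12000. Mitochondrial UMIs were at 0.220% and 0.126% from 1500 to 3000 UMIs. Their part in the difference within radial glia-like nuclei was not tested.

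E14 vessel-like nuclei (endothelial- and mural-like) held about 2 times the ribosomal share of E14 neuron-like nuclei. The share was 2.04% in 30 vessel-like nuclei and 1.05% in the neuron-like nuclei, a ratio of 1.94 (1.87 to 2.02), with the 9 mural-like nuclei at 1.17%. Mural-like nuclei were higher on both sides of the window, at 1.80% from 1500 to 3000 UMIs and 2.27% from 6000 to 12000. Of 77 members, 63 (81.8%) were higher by at least 1.5-fold against 32.7% of 9986 genes, and none was lower against 27.9%. The interval lay above 1 for 64 members, a count that was not made over all genes. The median log2 ratio was 0.93 over members against 0.15 over all genes. The log2 ratio was 0.64 at 1500 to 3000 UMIs and 1.19 at 6000 to 12000. In the same nuclei the 16 other short abundant mRNAs had a median of 0.69 with 11 higher, and haemoglobin and Ttr transcripts, which neither class is known to make, were higher in 4 of 5. Their part in the ribosomal difference was not tested.

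Rpl38, a large subunit protein known for the translation of Hox mRNAs in the embryo, was at 770 CPM in vessel-like and 231 in neuron-like nuclei (3.34, 2.70 to 4.08), the highest ratio among members with more than a few UMIs. Rps27l, an Rps27 paralogue, had a ratio of 3.93 on only 8 vessel-like UMIs. Rpl4, a core protein of the large subunit, was at 154 against 52.2 CPM (2.95, 1.79 to 4.62). The ratios of Rpl10 (1.02, 0.521 to 1.80), Rpl17 (1.09, 0.593 to 1.86) and Rps12 (1.25, 0.809 to 1.84) were lowest, and their intervals include 1. Over all depths Rpl38 was at 650 CPM in endothelial-like, 457 in mural-like, 578 in fibroblast or mesenchyme-like and 275 in radial glia-like nuclei. It was, with Rpl7a, 1 of 2 among the 74 members profiled over E14 classes that were not highest in the fibroblast or mesenchyme-like class.

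Translation factors and other TOP mRNAs stood beside the members in this comparison, with 15 of 20 (75%) higher and a median log2 ratio of 0.94. Eef1b2, an elongation factor subunit, had a ratio of 2.62 (1.85 to 3.62), Tpt1, a TOP mRNA of a translationally controlled protein, 2.31 (1.77 to 2.96) and Eef1a1 1.90 (1.49 to 2.40). Of 18 ribosome biogenesis genes 7 (38.9%) were higher and 5 (27.8%) lower, near the 32.7% and 27.9% of all genes, with a median of 0.20. Ncl was at 1.92 (1.30 to 2.74) and Nop56 at 0.469 (0.151 to 1.10).

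Adult glia-like and adult neuron-like nuclei had nearly the same summed ribosomal share in the window, but not at other depths or in the median nucleus. The share was 1.46% in 150 glia-like and 1.42% in 45 neuron-like nuclei, a ratio of 1.03 (0.987 to 1.07). The median nucleus held 0.792% in glia-like and 1.05% in neuron-like nuclei. With the stricter class rule the ratio of the sums was 1.08 (1.03 to 1.13). The glia-like sum joins low oligodendrocyte-like nuclei with astrocyte-like nuclei, whose sum a minority of nuclei carried. Among 75 members 5 (6.67%) were higher by at least 1.5-fold against 35.1% of 3878 genes, and 1 (1.33%) was lower against 23.6%. The median log2 ratio over members was -0.00. At 1500 to 3000 UMIs the log2 ratio of the summed share was -1.08 and at 6000 to 12000 UMIs it was 0.97, the crossing of the curves described above. In the window 7 of the 45 neuron-like nuclei had Malat1 under 1.5%. Without such nuclei the shares were 1.09% in glia-like and 1.05% in neuron-like nuclei.

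Against this level sum, the interval lay above 1 for 4 of the 75 members and below 1 for 2. These intervals are not adjusted for the number of members, so some would exclude 1 by counting error alone. The highest and lowest members follow. Rps29, a small zinc-binding protein of the small subunit, was at 370 CPM in glia-like and 160 in neuron-like nuclei (2.32, 1.61 to 3.43). Rpl23a (1.82, 1.08 to 3.26) and Rpl26 (1.71, 1.18 to 2.53), both placed at the exit of the peptide tunnel, came next. Rpl7 was at 116 against 188 CPM (0.619, 0.415 to 0.935), Rps3a1 at 0.726 (0.545 to 0.975) and Rps28 at 0.731 (0.512 to 1.06). Over all depths Rps29 stood at 612 CPM in astrocyte-like, 386 in oligodendrocyte precursor-like, 252 in oligodendrocyte-like and 142 in dentate granule-like nuclei, so the oligodendrocyte-like class was nearer to the neurons.

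Adult endothelial-like nuclei held about 2 times the share of adult neuron-like nuclei in the window, at 2.82% in 16 nuclei against 1.42% (1.99, 1.87 to 2.12). Among 49 members with enough UMIs, 42 (85.7%) were higher by at least 1.5-fold against 23.9% of 1037 genes, and none was lower against 54.4%. The median log2 ratio was 1.02 over members and -0.88 over all genes. The neuron-like nuclei held most of the UMIs of this pair, so genes high in neurons passed the limit on UMIs more readily. The values over all genes are partly set by that limit. The direction turned at 1500 to 3000 UMIs, where the log2 ratio was -0.73, and it was 2.30 at 6000 to 12000 UMIs. Malat1 was at 3.16% of UMIs in these endothelial-like and 4.31% in the neuron-like nuclei, and the mRNAs of the short abundant list took 1.12% and 0.692%.

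Rps15, a protein of the small subunit head, was at 494 CPM in endothelial-like and 146 in neuron-like nuclei (3.39, 1.97 to 5.81). Rps29 was at 528 against 160 (3.30, 1.96 to 5.53) and Rps15a, whose start carries the tract CTTCCCTC, at 477 against 151 (3.17, 1.84 to 5.43). Lowest were Rps3a1 (0.905, 0.508 to 1.53), Rps28 (0.924, 0.446 to 1.77) and Rpl32 (1.01, 0.485 to 1.95), with intervals that include 1. Tpt1 had a ratio of 3.20 (2.23 to 4.58) and Eef1a1 1.24 (0.838 to 1.80).

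**Figure D3:**
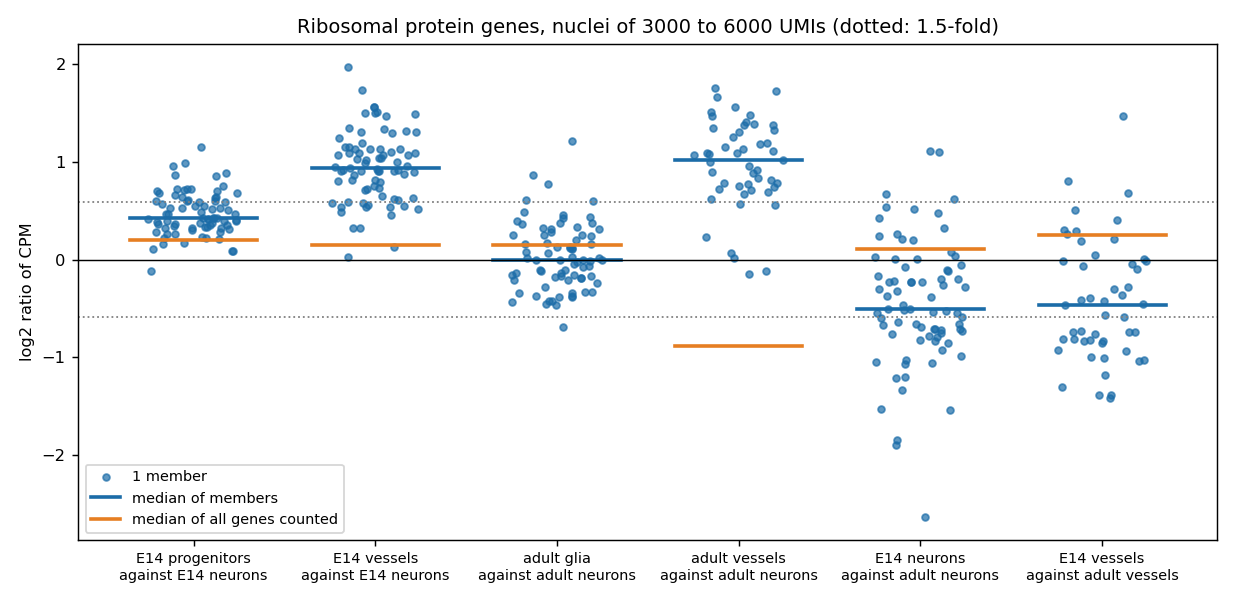
Log2 ratio of CPM for each ribosomal protein gene with at least 50 UMIs in both groups together (points), in 6 comparisons of nuclei of 3000 to 6000 UMIs; blue bars are the median of the members, orange bars the median of all genes counted, and dotted lines mark 1.5-fold. Members lay above 0 in the comparisons of E14 progenitors, E14 vessels and adult vessels with neurons (medians 0.43, 0.93 and 1.02), around 0 in adult glia, and mostly below 0 in E14 against adult neurons (median -0.51) and vessels (median -0.46).

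Between libraries the ribosomal share in the window was lower at E14 than in the adult, both in neurons and in vessels, but the direction was not stable over depth. E14 neuron-like nuclei held 1.05% and adult ones 1.42% (ratio 0.742, 0.715 to 0.770). Of 77 members 33 (42.9%) were lower at E14 by at least 1.5-fold against 26.1% of 10021 genes, and 4 (5.19%) were higher against 33.7%. The E14 neuron-like nuclei, 1024 beside 45 adult ones, held most of the UMIs of this pair. Genes high at E14 thus passed the limit on UMIs more readily, and the values over all genes are partly set by it. With nuclei of more Malat1 only, the log2 ratio of the sum was -0.01, at 6000 to 12000 UMIs it was 0.26, and over all depths 0.57, so the window decides its sign. Of the mitochondrial ribosomal protein genes 35 of 58 were lower and 9 higher. Ttr, with 1893 UMIs in the E14 neuron-like nuclei and 0 in the adult ones, marks RNA that these neurons do not make.

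In E14 and adult vessel-like nuclei the shares were 2.04% and 2.82% (0.724, 0.681 to 0.770). Of 49 members 22 (44.9%) were lower at E14 against 27.2% of 718 genes, and 3 (6.12%) higher against 39%. The log2 ratio was 0.11 at 1500 to 3000 UMIs and -0.85 at 6000 to 12000. The E14 group contained mural-like nuclei as a class, and the adult group held mural markers within its endothelial-like nuclei.

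The spread of members within these comparisons was wide. In neurons Rpl29, a small basic protein of the large subunit, was at 15.2 CPM at E14 and 94.1 in the adult (0.161, 0.0967 to 0.280). Rpl3, which lies near the peptidyl transferase centre, was at 92.3 against 343 (0.269, 0.209 to 0.350), and Rps2 at 66.9 against 240 (0.279, 0.207 to 0.383). Rps29 went the other way, at 346 against 160 (2.17, 1.54 to 3.14), as did Rps26, at the mRNA exit of the small subunit, at 192 against 89.4 (2.15, 1.37 to 3.58). Rps27l was at 14.9 against 9.41 CPM, on 2 adult UMIs. In vessels Rps28, a small protein near the mRNA exit, was at 565 against 204 CPM (2.77, 1.496 to 5.58) and Rpl38 at 770 against 443 (1.74, 1.12 to 2.79). Rpl27a (0.375, 0.239 to 0.585), Rpl26 (0.383, 0.212 to 0.690) and Rps27a, a fusion of ubiquitin and ribosomal protein (0.383, 0.230 to 0.635), were lowest.

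To set the total share aside, each member was taken as a percentage of the summed member UMIs, which UMIs of other genes do not change. In the whole libraries 9 of 79 members took a share at least 1.5-fold larger at E14 and 9 a share at least 1.5-fold smaller. The same comparison gave 13 and 12 of 77 in neuron-like nuclei of the window, 6 and 5 of 77 in endothelial-like nuclei and 14 and 13 of 63 in microglia or macrophage-like nuclei, the last 2 over all depths. The whole libraries contain the other pairs, so these are not separate samples. The microglia or macrophage-like pair rests on 1326 adult member UMIs, beside 3011 in neuron-like and 6635 in endothelial-like nuclei. Its counts past 1.5-fold hold more counting error and do not show a larger shift. Shares of a fixed total must move both ways, as a rise in some members requires a fall in others. No matching count over all genes was made, so the counts do not show whether members shifted more than other genes. Of 63 members counted in all 4 pairs, Rps28, Rpl39, Rps26 and Rps9 were higher at E14 by that factor in each, and Rps2 and Rpl21 were lower in each.

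Rps28 made up 2.46% of member UMIs at E14 and 1.08% in the adult (2.28, 2.16 to 2.40). The ratio was 1.62 in neuron-like, 2.45 in endothelial-like and 1.94 in microglia or macrophage-like nuclei. Rpl39, a short protein lining the peptide tunnel, made up 1.53% and 0.752% (2.03, 1.91 to 2.16), and its ratios were 1.96, 2.10 and 1.88. Rps26 made up 1.75% and 0.851% (2.06) and Rps9, a protein at the shoulder of the small subunit, 1.67% and 1.00% (1.67). The microglia intervals of Rps26 (0.899 to 2.89) and Rps9 (0.921 to 2.75) include 1.

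Rps2 made up 0.653% of member UMIs at E14 and 1.65% in the adult (0.395, 0.377 to 0.415), with 0.376 in neuron-like, 0.443 in endothelial-like and 0.626 in microglia or macrophage-like nuclei, where the interval (0.337 to 1.22) includes 1. Rpl21 made up 0.926% and 1.78% (0.521, 0.498 to 0.545). Rps2 and Rpl21 have 11 and 15 named pseudogenes. Rpl31 and Rps12, with 24 and 23, were not among the members lower in each pair, and Rpl29 and Rpl3, given next, have 3 and 2. In the whole libraries the median log2 ratio was -0.06 over 57 members with a named pseudogene and 0.03 over 22 without. The libraries were counted with different Cell Ranger versions per the file headers. A difference in how multi-copy reads were handled and a difference between tissues therefore cannot be told apart, and the part of pseudogenes was not tested. Rpl29 had the smallest ratio of the whole libraries, at 0.161% and 0.616% (0.261, 0.239 to 0.285), and 0.204 in endothelial-like nuclei, but too few UMIs in microglia. Rpl3 was at 0.411 in the whole libraries and 0.720 in endothelial-like nuclei. Rps29 was at 1.70 in the whole libraries, 2.92 in neuron-like, 1.64 in endothelial-like and 1.43 in microglia or macrophage-like nuclei.

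Members with a snoRNA inside made up 36.7% of member UMIs at E14 and 41.0% in the adult. The direction was the same in neuron-like nuclei (36.4% and 41.6%), endothelial-like nuclei (37.4% and 39.6%) and microglia or macrophage-like nuclei (36.2% and 41.0%, from 26 members counted). In the whole libraries 4 of the 28 took a share at least 1.5-fold smaller at E14 and 1 a larger one, with a median log2 ratio of -0.11. Rps2, Rpl21 and Rpl3 are among the 4, so a few genes carry much of the difference. For Rps2 and Rpl21 the limit on multi-copy reads given above applies. Rpl genes took 55.4% at E14 and 58.3% in the adult. Members with the tract at their start took 15.9% and 14.9%.

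**Figure D4:**
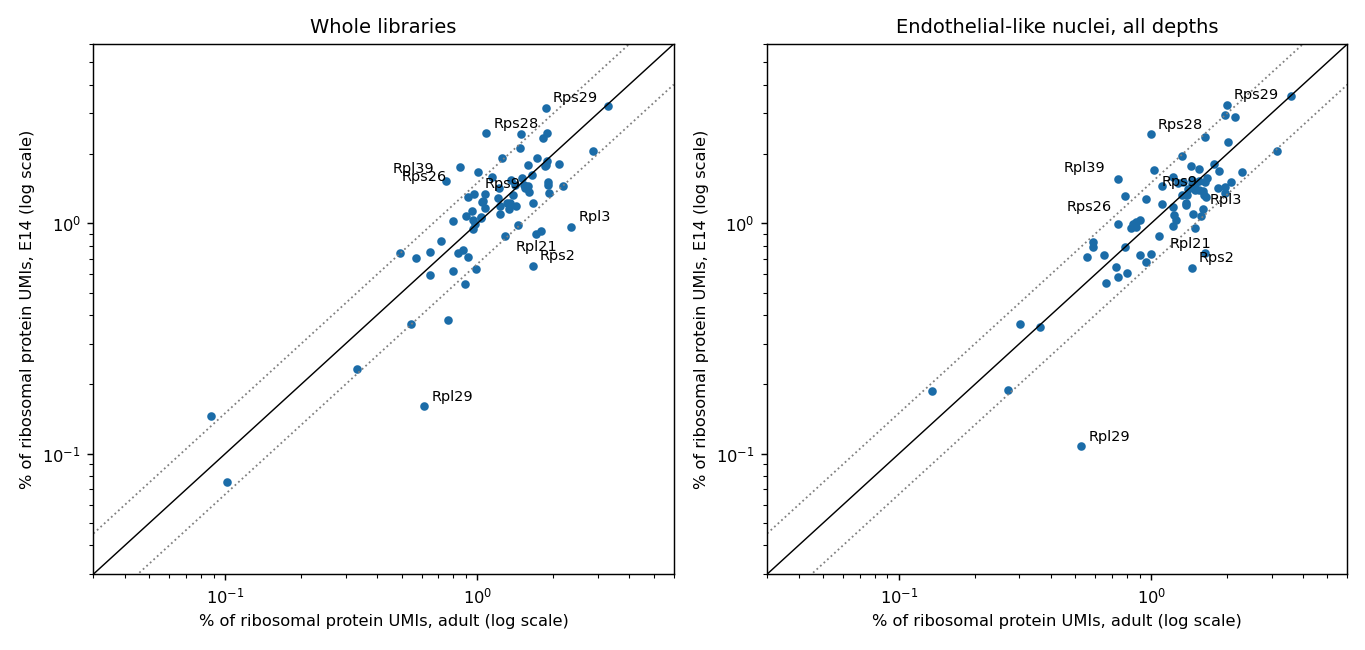
Share of each ribosomal protein gene in the summed ribosomal protein UMIs (%, log scales), E14 against adult, for whole libraries (left) and endothelial-like nuclei of all depths (right); the solid line marks equal shares and dotted lines 1.5-fold. Rps28, Rpl39 and Rps26 lay above the lines and Rps2 and Rpl29 below them in both panels, while Rpl3 lay outside the lines in the whole libraries only.

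Some members have a paralogue, and the ratio within such a pair does not depend on the total share. Rpl22l1 stands in for Rpl22, a large subunit protein, and the pair is similar in sequence. Over all depths Rpl22l1 made up 54.0% (51.9 to 56.1) of the UMIs of the pair in the adult library and 38.8% (37.7 to 39.9) at E14. In adult neuron-like nuclei it was 57.7% (55.0 to 60.4), in adult glia-like nuclei 49.6% (44.5 to 54.8) and in adult endothelial-like nuclei 27.4% (17.6 to 39.1), from 20 of 73 UMIs. The adult endothelial-like interval did not overlap that of neuron-like or glia-like nuclei. Rpl22 was at 232 CPM (174 to 304) in adult endothelial-like and 48.2 CPM (44.3 to 52.3) in adult neuron-like nuclei, whereas Rpl22l1 was at 87.6 CPM (53.5 to 135) and 65.7 CPM (61.1 to 70.5), with an overlap.

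At E14 the classes were closer together. Rpl22l1 made up 37.3% (34.2 to 40.6) in progenitor-like, 37.3% (35.4 to 39.4) in neuron-like and 37.6% (32.4 to 43.0) in endothelial-like nuclei. Choroid plexus-like nuclei were at 48.3% (40.1 to 56.6) and Cajal-Retzius-like nuclei at 47.0%. The lowest value, 23.1% in mural-like nuclei, rests on 26 UMIs.

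**Figure D5:**
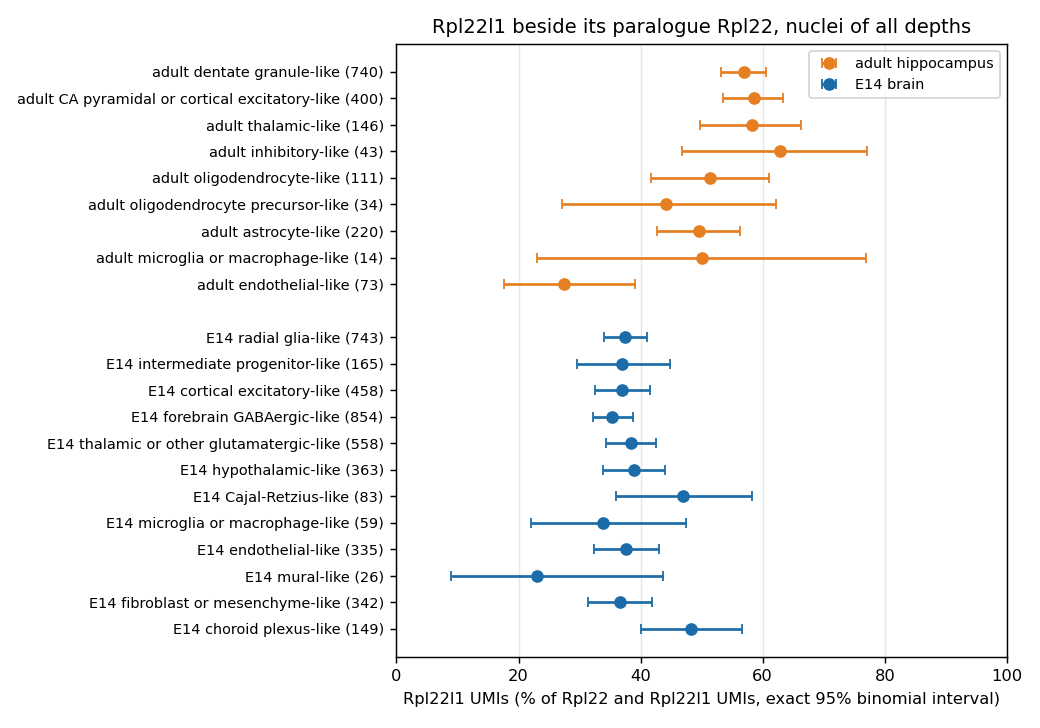
Rpl22l1 UMIs as a percentage of Rpl22 and Rpl22l1 UMIs in each class (points, with exact 95% binomial intervals), over nuclei of all depths, with the number of UMIs of both genes in brackets; adult classes are orange and E14 classes blue. Adult neuron classes lay above 50% and adult endothelial-like nuclei at 27.4%, while most E14 classes lay between 33.9% and 38.8%.

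Other pairs showed smaller contrasts. Rpl36al made up 48.8% (46.4 to 51.2) of the UMIs of Rpl36a and Rpl36al in the adult library and 34.0% (32.9 to 35.1) at E14. Within the adult it was 53.5% (50.3 to 56.6) in neuron-like and 40.5% (35.05 to 46.2) in glia-like nuclei, without overlap. Rpl7l1 made up 24.3% (22.5 to 26.2) of its pair with Rpl7 in the adult and 17.99% (17.2 to 18.8) at E14, and 27.7% in adult neuron-like against 15.7% (9.55 to 23.6) in adult endothelial-like nuclei. Each of these 3 paralogues thus took a larger part of its pair in the adult library. Rpl7l1, like Rps19bp1, was left out of the set of structural ribosomal proteins, so its pair is one of related symbols only.

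Rps27l behaved otherwise. It made up 6.56% (5.52 to 7.72) of the UMIs of Rps27 and Rps27l in the adult library and 7.02% (6.62 to 7.44) at E14, with overlapping intervals. Within the E14 library it was 9.13% (7.67 to 10.8) in radial glia-like nuclei and 11.02% (8.59 to 13.9) in endothelial-like nuclei against 4.78% (3.50 to 6.37) in cortical excitatory-like nuclei. The first pair did not overlap the last. Rpl3l stayed at 0.279% of its pair with Rpl3 in the adult and 0.171% at E14.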

How the data were processed

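Nuclei of 1 adult hippocampus and 1 E14 brain library were measured by droplet RNA sequencing. The values are UMI counts per gene and nucleus, deposited by the authors as Cell Ranger matrices (6.1.2 for the adult and 7.0.1 for the E14 library, per the file headers), aligned to mm10 with intronic reads. For the embryo the authors' methods name a background correction with CellBender. The matrix used here carries Cell Ranger's header and was taken as uncorrected.

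Nuclei with at least 500 UMIs and at most 5% mitochondrial UMIs were kept, 1609 of 1661 adult and 9036 of 9037 E14 nuclei. A nucleus needed at least 4 UMIs from at least 2 markers of a class, and a likelihood at least 20 times that of the next class under the marker rates of clear members of each class. The class rule was chosen after the data, ribosomal values included, had been seen, and the members and lists were chosen with earlier results of these data known. The rule was tested on simulated nuclei, where intermediate progenitor-like nuclei of these depths were not recovered, as their markers give too few UMIs, so nuclei of that class are those with most marker UMIs. Scrublet (in scanpy) marked 6 adult (0.373%) and 4 E14 (0.0443%) nuclei as doublets and was judged not to have worked. Doublets were kept, and as an alternative the 21 and 653 highest scores were left out.

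Member UMIs were summed over the nuclei of a class with 3000 to 6000 UMIs, and 6 comparisons were made. Intervals are exact (Clopper-Pearson for shares, the conditional binomial for ratios) at 95% and cover counting error only. A gene was counted where both groups together held at least 50 UMIs, and called past 1.5-fold. Genes high in the group with more UMIs enter more readily, which weighs on the shares over all genes. A gene at 0 UMIs in 1 group was set to the floor of 3 counts. Named genes are the 3 highest and 3 lowest members of each comparison, the 5 members with most UMIs per library, Rps19bp1, paralogues with their parent genes, and genes of the fixed lists. Members named for their share of the member sum, and Rpl7a, were named after their values were seen. A few genes that this rule selects are not reported here. Python 3.11.15, numpy 2.4.6, scipy 1.17.1, pandas 2.3.3, scanpy 1.11.5 and matplotlib 3.10.9 were used.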

Additional observations from a re-analysis of the deposited data

How the results depend on the processing

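Values are log2 ratios of the summed ribosomal share. At 1500 to 3000 UMIs, E14 progenitors against E14 neurons gave 0.30, E14 vessels against E14 neurons 0.64, adult glia against adult neurons -1.08 and E14 neurons against adult neurons -1.26, while adult vessels against adult neurons turned to -0.73 and E14 vessels against adult vessels to 0.11. At 6000 to 12000 UMIs the first 4 gave 0.31, 1.19, 0.97 and, turned, 0.26, adult vessels 2.30 and the vessels of both libraries -0.85. Over all depths E14 progenitors gave 0.37, E14 vessels 1.02, adult glia 1.27, adult vessels 2.00 and E14 against adult neurons, turned, 0.57. With Malat1 of at least 1.5% the values were 0.38 for E14 progenitors, 1.42 for adult vessels and -0.01 for E14 against adult neurons. Medians over nuclei gave 0.52 for E14 progenitors, 0.82 for E14 vessels, -0.41 for adult glia, 1.37 for adult vessels, -0.16 for E14 against adult neurons and -0.71 for the vessels of both libraries. A stricter class rule moved adult glia to 0.11.

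A slope of member UMIs on depth in place of a share, chosen after seeing the data, gave 0.05 for E14 progenitors, 0.63 for E14 vessels, 1.95 for adult glia, 1.69 for adult vessels and, both turned, 1.13 for E14 against adult neurons and 0.07 for the vessels of both libraries. The cause was not tested. The other alternatives (shares without mitochondrial and Malat1 UMIs, doublets left out, structural ribosomal proteins only, and the settings not listed above) kept their direction and moved by less than the counting interval.

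E14 progenitors and vessels exceeded E14 neurons under every alternative run. The slope left only 0.05 for progenitors, and cortical excitatory-like neurons stood above the progenitors in the window. The E14 vessel group held 30 nuclei there. The comparisons with adult neurons and between libraries changed sign with depth or rest on 16 to 45 nuclei. No paired analysis was possible because each tissue has 1 library. For the same reason leaving out a replicate was not run. The number of UMIs limits single members in small classes, and nothing here covers variation between animals.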
